A study of Mus musculus with 15 samples.

Results

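Histone methylation and acetylation enzymes were followed in the RNA of cultured mouse eosinophils. The members were the genes whose symbols name a lysine demethylase (Kdm), a lysine methyltransferase (Kmt, Ehmt, Ezh or Dot1l) or a SET domain (Setd). Symbols that name an acetyltransferase (Kat, Crebbp or Ep300) or a deacetylase (Hdac) were also taken. Kdm5c, Kdm5d and Kdm6a on the sex chromosomes were left out. The rule took 57 of the 25101 genes in the count tables. Of these, 17 were listed as writers and erasers of H3K4 or H3K27, 11 are deacetylases and 29 are other members. Kdm7a is among the 29, as are Setd3, Setd4, Setd5 and Setd6, which were listed only as SET domain genes.

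Some of these enzymes place or remove the histone marks that the study mapped on chromatin, which were methylation of H3K4 and acetylation of H3K27. Methylation of H3K4 is laid down by the MLL and SET1 enzymes at promoters and enhancers and is taken off by the Kdm1 and Kdm5 families. H3K27 carries either acetyl groups, added by CREB-binding protein and p300 at active promoters and enhancers, or methyl groups, added by Ezh1 and Ezh2 within the Polycomb repressive complex and removed by demethylases such as Kdm6b. Deacetylases reverse acetylation and work largely within corepressor complexes.

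The eosinophil libraries came from unselected bone marrow of BALB/c mice kept in culture for 14 days. The cells received stem cell factor and FLT3 ligand at 100 ng/mL each from day 0 to day 3, and interleukin 5 at 10 ng/mL from day 4 to day 14. There were 2 messenger RNA libraries of this group, with 40306679 and 30465490 counts. The labels do not state which cultures or mice the libraries came from. Xist, which is transcribed from the inactive X chromosome of females, had 990 CPM (counts per 1000000 of the library total) in replicate 1 and 0.656 CPM in replicate 2. The libraries therefore did not hold the same mixture of female and male cells, and the part of this in any gap between them, the X-linked Hdac6 and Hdac8 included, was not tested. They were set beside 2 count columns of outside work that the submitters had re-analysed, with 106940777 counts for a macrophage library and 6390310 counts for a neutrophil library. The tables of the outside columns name no cell type, strain, age or treatment; the cell types are those assigned to their run numbers.

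Marker levels were read before the members. The 10 eosinophil markers summed to 13376 and 13634 CPM in the eosinophil libraries, against 3.42 CPM in the macrophage library, where Prg3, Ear1, Ear2 and Il5ra were at 0, and 338 CPM in the neutrophil library. The 12 macrophage markers summed to 6827 and 8327 CPM in eosinophils, 18593 CPM in the macrophage library and 927 CPM in the neutrophil library. The 13 neutrophil markers summed to 2361 and 2054 CPM in eosinophils, 294 CPM in the macrophage library and 3034 CPM in the neutrophil library. Of these 13, 6 were higher in both eosinophil libraries than in the neutrophil library, among them Ngp, Ly6g and Retnlg. The eosinophil libraries thus held transcripts of the macrophage and neutrophil marker genes. Whether these came from other cells in the cultures or from the eosinophils was not tested. In bulk RNA fewer cells of a type and less RNA per cell cannot be told apart. Of the 10 stromal markers, 9 were higher in eosinophil replicate 1, and their sum was 4690 CPM there and 1855 CPM in replicate 2. The 85 ribosomal protein genes, whose transcripts are short, took 2.61% and 2.56% of counts in eosinophils, 2.14% in the macrophage library and 0.408% in the neutrophil library.

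Nearly all members were expressed in eosinophils. A level of at least 1 CPM in both libraries was reached by 55 of 57 members, where 47.5% of all genes reached it. Hdac11 stood below that minimum, at 0.744 and 0.788 CPM, and Kdm4d had 4 counts in replicate 1 and 0 in replicate 2, where 3 counts would equal 0.0985 CPM. The detected members averaged between 2.04 and 383 CPM with a median of 90.8 CPM. Levels of different genes were not ranked, because CPM grows with transcript length and no transcript lengths were used.

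The 2 eosinophil libraries gave close levels for the members. None of the 55 detected members lay more than 1.5-fold apart, where 7.24% of all detected genes did. The median ratio of the higher to the lower library was 1.04, and 40 members lay under 1.1-fold apart. The widest gaps were 1.34-fold for Hdac9, 1.27-fold for Ezh2 and 1.26-fold for Hdac8, each higher in replicate 1. For Ezh2 the ratio of replicate 1 to replicate 2 had an exact 95% interval of 1.17 to 1.38, so this gap exceeded counting error. All 8 proliferation markers were likewise higher in replicate 1, with sums of 1259 and 1065 CPM, and the stromal markers moved the same way; their part in the Ezh2 gap was not tested.

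Each outside cell type had a single library, and cell type, laboratory and library preparation cannot be told apart. No test was therefore made between cell types. A member was called higher or lower when both eosinophil libraries lay more than 2-fold from the outside library on CPM + 0.5, which understates the difference of low genes, and when the mean of the eosinophil mean and the outside level was at least 1 CPM. Differences are given as the mean log2(CPM + 0.5) of the eosinophil libraries minus that of the outside library. Intervals cover counting error only.

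Against the macrophage library, 56 members passed the minimum, of which 10 were higher in eosinophils (17.9%) and 5 lower (8.93%). Over all 12125 genes that passed it, 22.2% were higher and 16.2% lower. In either direction 26.8% of the members and 38.4% of all genes were called, so the members' share was below the background both ways. With TMM scaling or DESeq2 size factors the split was 8 higher and 7 lower, and Kmt2d and Kmt5b were no longer called. The median log2 difference was 0.13 over the members and 0.01 over all genes, and with TMM scaling, which lowered the median of all genes by 0.21, the members' median was -0.09.

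Against the neutrophil library, 55 members passed the minimum, of which 5 were higher in eosinophils (9.09%) and 19 lower (34.5%). Over all 12238 genes that passed it, 26.7% were higher and 23.6% lower. In either direction 43.6% of the members and 50.3% of all genes were called. The lower share lay clearly above the background with this scaling alone, and the higher share lay below it under every scaling. The members' median log2 difference was -0.80, beside -0.13 over all genes. With TMM scaling, which raised the median of all genes by 0.30, the split was 6 higher and 9 lower. The lower share of 16.4% was near the 16.8% of all genes, and the higher share of 10.9% was below their 31.6%. With DESeq2 size factors, which raised that median by 0.18, the split was 5 and 11. The lower share of 20.0% was near the 19.5% of all genes, and the higher share of 9.09% was below their 29.7%. The members' median then stood at -0.49 and -0.61, beside 0.18 and 0.05 over all genes. The part of the low ribosomal protein share of the neutrophil library in these counts was not tested. The plot of differences by role shows both comparisons, which share the eosinophil libraries.

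**Figure D1:**
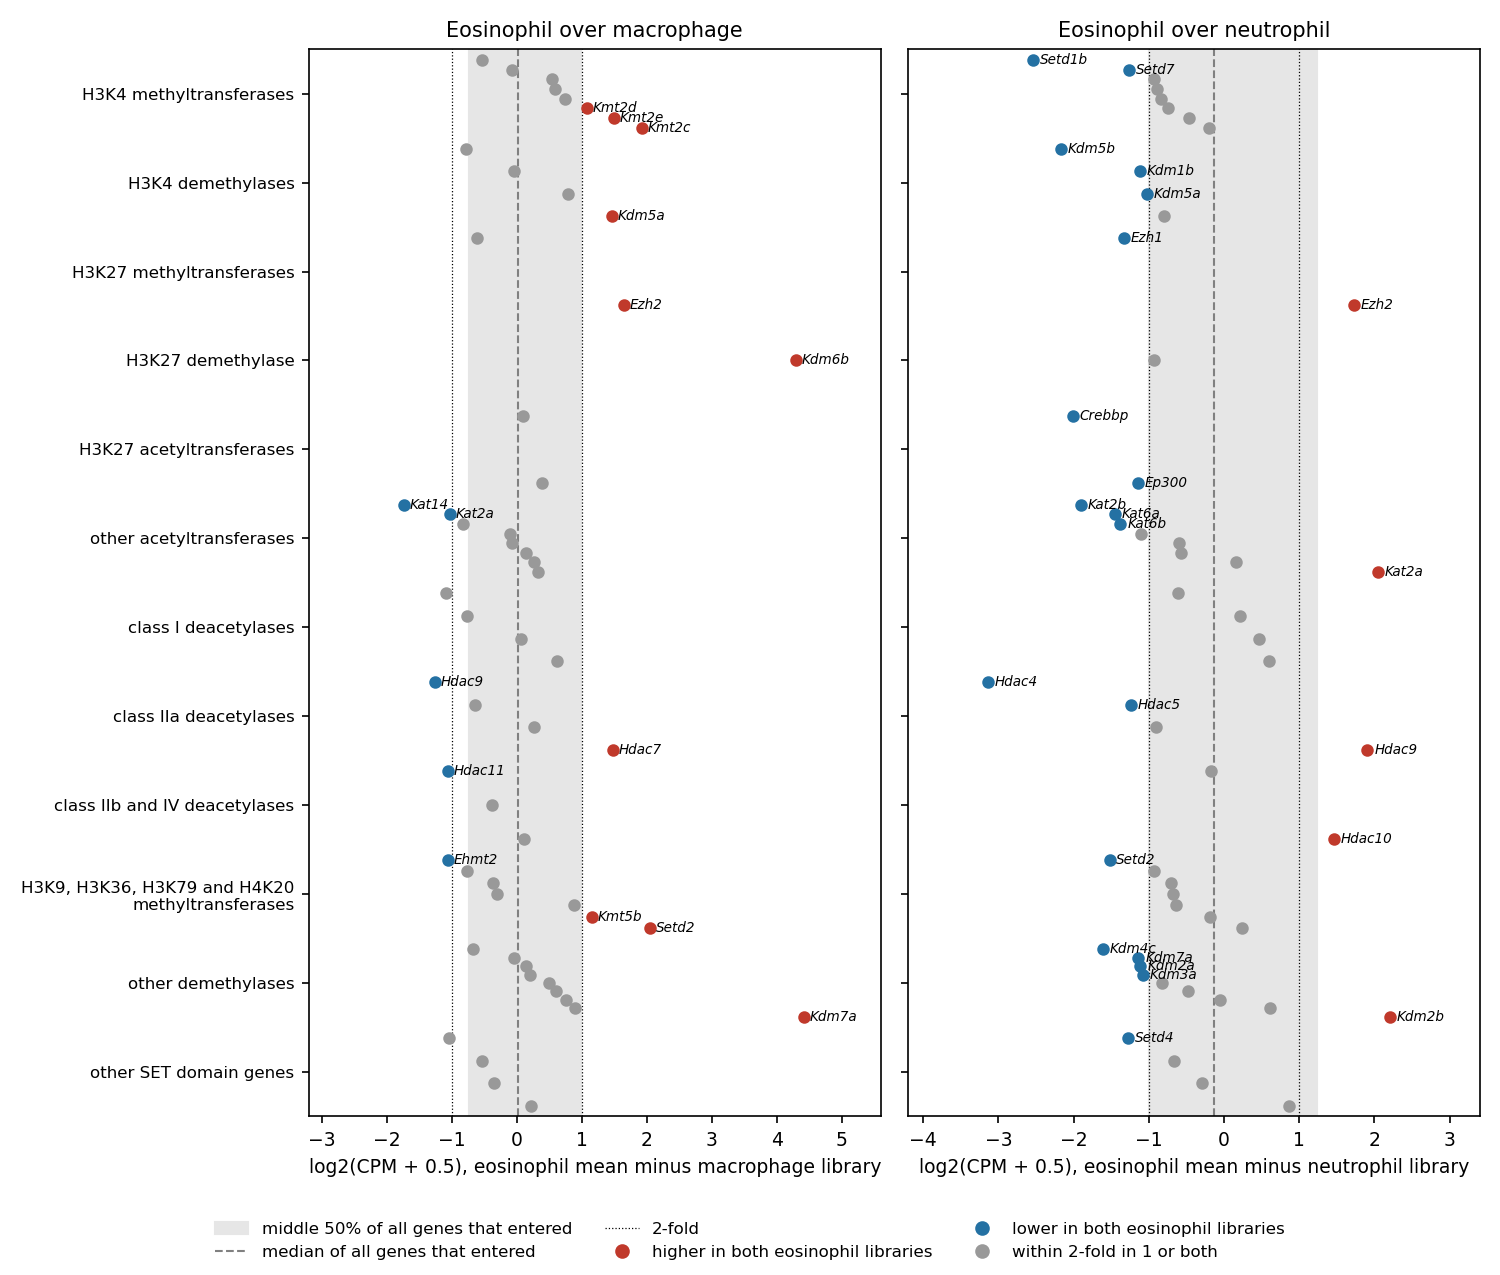
Difference in log2(CPM + 0.5) between the mean of the 2 eosinophil libraries and the macrophage library (left) or the neutrophil library (right), for the members that passed the minimum, by role. Each point is a gene, the dotted lines mark 2-fold, the dashed line and grey band the median and middle 50% of all genes, and the called members are named: 10 higher and 5 lower against macrophage, 5 higher and 19 lower against neutrophil.

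The H3K4 methyltransferases were all expressed. Kmt2a to Kmt2d encode the MLL enzymes, of which Kmt2c and Kmt2d act mainly on enhancers, and Kmt2e encodes a relative with little methyltransferase activity. Kmt2c had 280.5 and 290.3 CPM in eosinophils, 74.7 CPM in the macrophage library and 547 CPM in the neutrophil library. Kmt2d had 383 and 384 CPM in eosinophils, 181 CPM in the macrophage library and 709 CPM in the neutrophil library. Kmt2e had 278 and 277 CPM in eosinophils, 97.96 CPM in the macrophage library and 467 CPM in the neutrophil library. In each of these 3 genes the eosinophil libraries lay close together between the outside libraries, and all 3 were called higher against macrophage, with log2 differences of 1.93, 1.08 and 1.497. Kmt2a, at 167 and 160.4 CPM in eosinophils against 97.1 CPM in the macrophage and 226 CPM in the neutrophil library, and Kmt2b, at 168 and 170.2 CPM in eosinophils against 116 CPM in the macrophage and 304 CPM in the neutrophil library, had the same order of levels within 2-fold of each outside library.

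The SET1 enzymes, which lay down most promoter H3K4 trimethylation, differed from the MLL genes in this order. Setd1a was nearly level, with 109 and 103 CPM in eosinophils, 111 CPM in the macrophage library and 122 CPM in the neutrophil library. Setd1b had 60.7 and 67.8 CPM in eosinophils, 93.5 CPM in the macrophage library and 375 CPM in the neutrophil library, and eosinophils were called lower against neutrophil (log2 difference -2.54). Setd7, which can add a single methyl group to H3K4 and also methylates other proteins, had 168 and 184 CPM in eosinophils, 117 CPM in the macrophage library and 423 CPM in the neutrophil library. It was called lower against neutrophil (-1.26), a call lost under both other scalings. As a group, 3 of 8 were higher and 0 lower against macrophage, and 0 higher and 2 lower against neutrophil, with median differences of 0.67 and -0.87. Over all genes 22.2% were higher and 16.2% lower against macrophage, and 26.7% and 23.6% against neutrophil, with medians of 0.01 and -0.13. Under both other scalings 2 of the group were higher against macrophage and 1 was lower against neutrophil.

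Among the H3K4 demethylases, Kdm5a and Kdm5b remove trimethyl and dimethyl groups. Kdm5a had 175 and 176 CPM in eosinophils, 63.4 CPM in the macrophage library and 357 CPM in the neutrophil library, and was called higher against the first (1.46) and lower against the second (-1.02). Kdm5b had 81.5 and 83.0 CPM in eosinophils, 47.6 CPM in the macrophage library and 372 CPM in the neutrophil library, a call against neutrophil alone (-2.17). The Kdm5a call against neutrophil lay at the edge of 2-fold and was lost under both other scalings. Kdm1a, the LSD1 demethylase of corepressor complexes, differed little, with 80.4 and 76.7 CPM in eosinophils, 80.6 CPM in the macrophage library and 137 CPM in the neutrophil library. Its relative Kdm1b stood at 11.3 and 12.1 CPM in eosinophils, 20.5 CPM in the macrophage library and 26.0 CPM in the neutrophil library (-1.12 against neutrophil, also lost under both other scalings).

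Ezh2 was the single member called higher in eosinophils against both outside libraries. Over all genes 22.2% were higher against macrophage and 26.7% against neutrophil, and the share higher against both was not taken. Ezh2 encodes the Polycomb methyltransferase typical of dividing cells, and Ezh1 its relative, which is more prominent in resting cells. Ezh2 had 38.6 and 30.3 CPM in eosinophils, against 10.5 CPM in the macrophage library and 10.0 CPM in the neutrophil library, which is 3.14-fold and 3.30-fold on the CPM + 0.5 scale. The eosinophil libraries differed from each other by far less than from either outside library. Ezh1 went the other way, with 90.7 and 91.0 CPM in eosinophils, 139 CPM in the macrophage library and 229 CPM in the neutrophil library, and was called lower against neutrophil (-1.33), a call that ended with TMM scaling. The sum of the 8 proliferation markers was also higher in eosinophils, at 1259 and 1065 CPM, than in the macrophage library (459 CPM) and the neutrophil library (363 CPM). Of the 8 markers, 6 were higher in both eosinophil libraries than in the macrophage library, and 8 than in the neutrophil library. Mki67, a gene of cycling cells, had 492 and 420.4 CPM in eosinophils, 27.3 CPM in the macrophage library and 172 CPM in the neutrophil library. Its gap to macrophage was the widest of the 8. Pcna, Mcm3 and Mcm6 were near the macrophage level. Pcna had 168 and 152 CPM in eosinophils and 153 CPM in the macrophage library. Mcm3 had 90.9 and 74.97 CPM beside 75.3 CPM, and Mcm6 104 and 93.8 CPM beside 90.97 CPM. The part of proliferation in the Ezh2 difference was not tested.

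Within a library, the share of one gene in a pair does not depend on how the library is scaled. It can still depend on library preparation and on the transcript lengths of the pair. Their part in the differences from the outside libraries was not tested. Ezh2 held 29.8% (exact 95% interval 28.6 to 31.1%) and 25.01% (23.6 to 26.4%) of the Ezh1 and Ezh2 counts in eosinophils, 7.06% (6.67 to 7.47%) in the macrophage library and 4.19% (3.24 to 5.32%) in the neutrophil library. The eosinophil mean was 27.4% ± 3.42 (SD, n = 2). The promoters of the pair are shown because these related genes stood on opposite sides of the outside libraries. The sequences are RefSeq windows on GRCm38.p6 from 120 bases before the annotated start to 20 bases after it, both on the minus strand. Ezh2 lies at chr6:47595011-47595150 and Ezh1 at chr11:101226444-101226583. Capitals mark TTTNGCGC, a form of the site bound by the E2F factors of the cell cycle, searched on both strands.
Ezh2: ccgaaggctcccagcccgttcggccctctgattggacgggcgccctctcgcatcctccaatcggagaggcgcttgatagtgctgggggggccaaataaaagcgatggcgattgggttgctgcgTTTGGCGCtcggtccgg
Ezh1: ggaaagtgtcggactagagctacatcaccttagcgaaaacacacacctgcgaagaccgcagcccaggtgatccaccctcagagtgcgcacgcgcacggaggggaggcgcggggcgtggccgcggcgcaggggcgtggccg
The letters occurred once in the Ezh2 window, from base 4 after the start, and not in the Ezh1 window. Of all 32851 RefSeq promoters searched, 0.691% held them in the same window, and of the 45 member genes with a promoter there Ezh2 alone did. The motif was chosen after several motifs had been searched in the members' promoters, and a match is a description of the letters only.

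The H3K27 demethylase Kdm6b, known from mouse macrophages as a gene induced by inflammatory signals, had one of the widest gaps. It stood at 308 and 302 CPM in eosinophils, 15.0 CPM in the macrophage library and 579.9 CPM in the neutrophil library. Eosinophils were 19.6-fold above macrophage (log2 difference 4.30, between 4.08 and 4.31 over the scalings, the larger pseudocount and the removal of either library) and below neutrophil by less than 2-fold (-0.93). Kdm6b counts made up 5.13% and 5.00% of all counts of the members in eosinophils, 0.330% in the macrophage library and 4.87% in the neutrophil library. Kdm7a, a demethylase of H3K9 and H3K27 dimethylation, had a similar pattern at 263 and 309 CPM in eosinophils, 12.9 CPM in the macrophage library and 628 CPM in the neutrophil library. It was 21.3-fold above macrophage (4.41) and called lower against neutrophil (-1.14), the second call being lost under both other scalings.

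The H3K27 acetyltransferases were within 2-fold of the macrophage library and below the neutrophil library. Ep300, which encodes p300, had 271 and 284 CPM in eosinophils, 259 CPM in the macrophage library and 613 CPM in the neutrophil library. Crebbp, which encodes CREB-binding protein, had 89.9 and 98.3 CPM in eosinophils, 71.6 CPM in the macrophage library and 380 CPM in the neutrophil library. Both were called lower against neutrophil (-1.14 for Ep300 and -2.01 for Crebbp), and the Ep300 call was lost under both other scalings. Ep300 held 75.1% (74.4 to 75.8%) and 74.3% (73.5 to 75.1%) of the counts of the pair in eosinophils, 78.4% (77.9 to 78.8%) in the macrophage library and 61.8% (60.6 to 63.0%) in the neutrophil library. The share in the neutrophil library was lower than in the other 3.

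Over all 17 enzymes of H3K4 and H3K27, 6 were higher and 0 lower against macrophage, and 1 higher and 8 lower against neutrophil. Against macrophage this is 35.3% higher, where 22.2% of all genes were higher and 16.2% lower, and with TMM scaling 5 were higher and 0 lower (29.4% higher, where 19.2% of all genes were). Against neutrophil it is 47.1% lower, where 26.7% of all genes were higher and 23.6% lower, but with TMM scaling 3 were lower (17.6%), near the 16.8% of all genes. The higher share against neutrophil with TMM scaling was 5.88%, beside 31.6% of all genes. With Kdm7a added, a gene itself called in both comparisons, 7 of 18 were higher (38.9%) and 0 lower against macrophage. Against neutrophil 1 was then higher and 9 lower (50.0%), beside the same shares of all genes. With TMM scaling 3 of the 18 were lower against neutrophil (16.7%), near the 16.8% of all genes. With DESeq2 size factors 4 were lower (22.2%), beside 19.5% of all genes. The 17 genes took 46.1% and 46.2% of the members' counts in eosinophils, 35.1% in the macrophage library and 49.4% in the neutrophil library. In the plot of their levels, the eosinophil libraries lay between the outside libraries for 11 genes, with macrophage lowest and neutrophil highest. The share of all genes in this order was not taken. The sum of all 57 members had the same order, at 5994 and 6039 CPM in eosinophils, 4550 CPM in the macrophage library and 11900.5 CPM in the neutrophil library. The order is therefore not shown to be particular to the H3K4 and H3K27 enzymes.

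**Figure D2:**
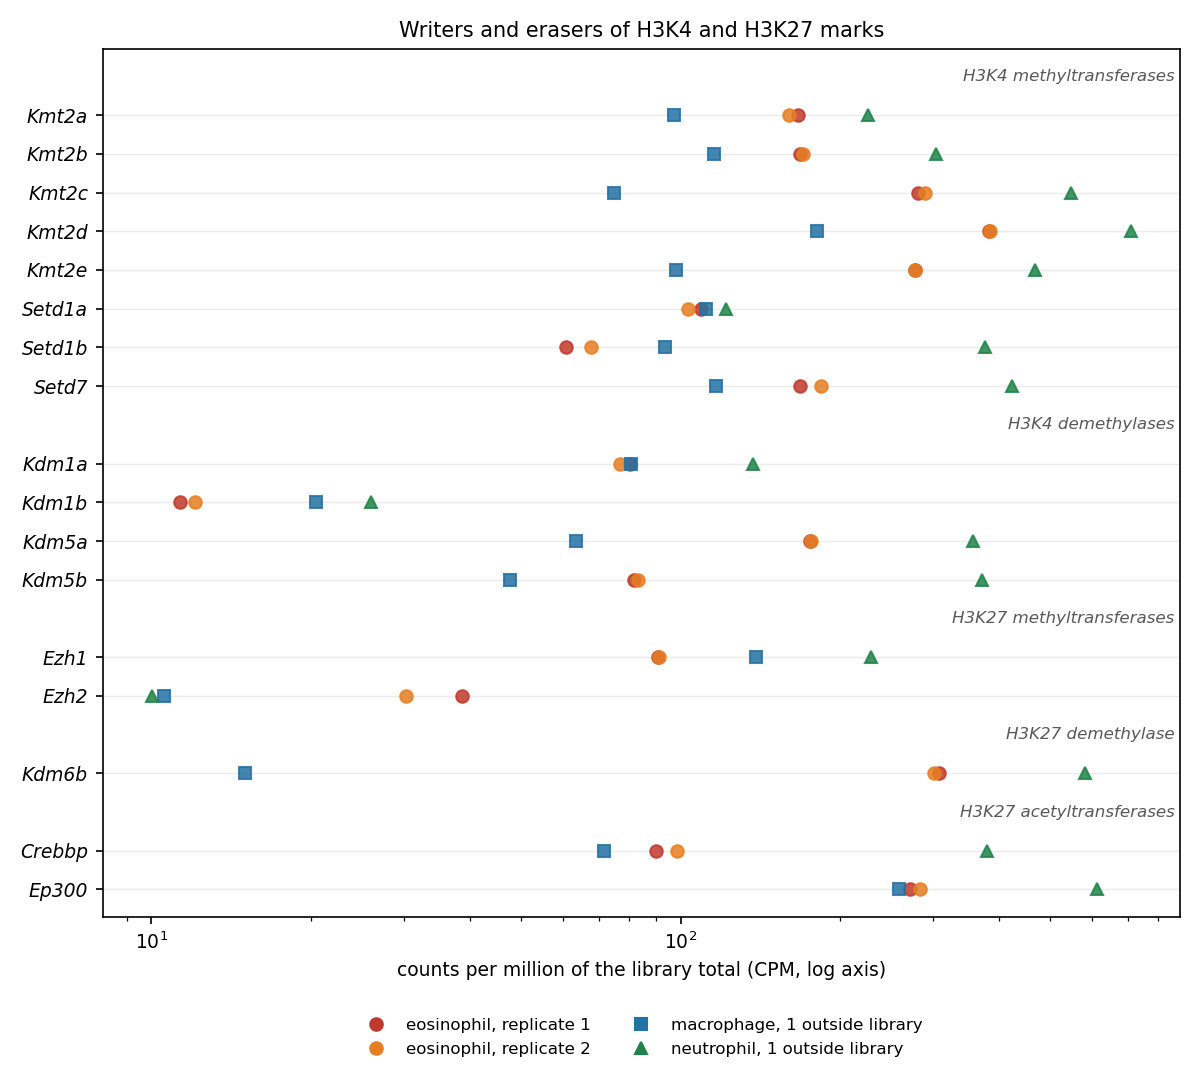
Level of the 17 H3K4 and H3K27 enzymes in CPM on a log axis, with 1 point per library: 2 eosinophil libraries (circles), 1 macrophage (square) and 1 neutrophil (triangle). Kdm6b shows the widest gap, at 308 and 302 CPM in eosinophils and 15.0 CPM in the macrophage library, and Ezh2 is the gene with both outside libraries below the eosinophils.

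The deacetylases differed in direction from gene to gene. Class I enzymes were all within 2-fold of both outside libraries in at least 1 eosinophil library. Of these, Hdac1, Hdac2 and Hdac3 are the catalytic units of the Sin3, NuRD, CoREST and NCoR complexes. Hdac1 had 87.4 and 83.8 CPM in eosinophils, 81.8 CPM in the macrophage library and 73.9 CPM in the neutrophil library. Hdac2 had 36.2 and 30.9 CPM in eosinophils, 21.5 CPM in the macrophage library and 21.9 CPM in the neutrophil library. Hdac1 and Hdac2 are close relatives that work in the same complexes, and Hdac1 held 70.7% (69.4 to 71.9%) and 73.1% (71.6 to 74.5%) of the counts of the pair in eosinophils, 79.2% (78.4 to 79.9%) in the macrophage library and 77.1% (73.6 to 80.4%) in the neutrophil library. Hdac3, the enzyme of the NCoR complexes, had 50.9 and 44.1 CPM in eosinophils, 81.1 CPM in the macrophage library and 72.9 CPM in the neutrophil library. The X-linked Hdac8 had 8.46 and 6.70 CPM in eosinophils, 16.7 CPM in the macrophage library and 5.32 CPM in the neutrophil library, just short of a call against macrophage in replicate 1.

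Class IIa deacetylases, which move between nucleus and cytoplasm and bind MEF2 factors, spread most widely. Hdac4 had 51.0 and 46.1 CPM in eosinophils, 40.2 CPM in the macrophage library and 432 CPM in the neutrophil library, the largest deficit of a member against neutrophil, where the neutrophil library was 8.83-fold higher (-3.14). Hdac5 had 125 and 128 CPM in eosinophils, 198 CPM in the macrophage library and 299 CPM in the neutrophil library (-1.24 against neutrophil, lost under both other scalings). Hdac7 had 56.5 and 54.7 CPM in eosinophils, 19.6 CPM in the macrophage library and 105 CPM in the neutrophil library, and was higher against macrophage (1.48). Hdac9 showed the reverse order, with 6.35 and 4.73 CPM in eosinophils, 13.8 CPM in the macrophage library and 1.095 CPM in the neutrophil library. It was called lower against macrophage (-1.26) and higher against neutrophil (1.91), where it rested on 7 neutrophil counts.

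Among the remaining deacetylases, Hdac6, the X-linked enzyme of cytoplasmic tubulin, stood at 30.2 and 27.9 CPM in eosinophils, 38.1 CPM in the macrophage library and 32.9 CPM in the neutrophil library, with no call. Hdac10, known as a polyamine deacetylase, had 17.0 and 14.2 CPM in eosinophils, 14.4 CPM in the macrophage library and 5.32 CPM in the neutrophil library, and was higher against neutrophil (1.47). Hdac11, the class IV enzyme, was lower than in the macrophage library, which had 2.13 CPM, and had 0 counts in the neutrophil library, which allows up to 0.469 CPM (3 counts). The Hdac11 call against macrophage ended with a pseudocount of 1. Over the 11 deacetylases, 1 was higher and 2 lower against macrophage, and 2 higher and 2 lower against neutrophil. Against macrophage these are 9.09% and 18.2% of the deacetylases, beside 22.2% and 16.2% of all genes, and against neutrophil 20.0% each way of the 10 that passed the minimum, beside 26.7% and 23.6%. With TMM scaling or DESeq2 size factors 3 were lower against macrophage, Hdac8 being added, and 1 against neutrophil.

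**Figure D3:**
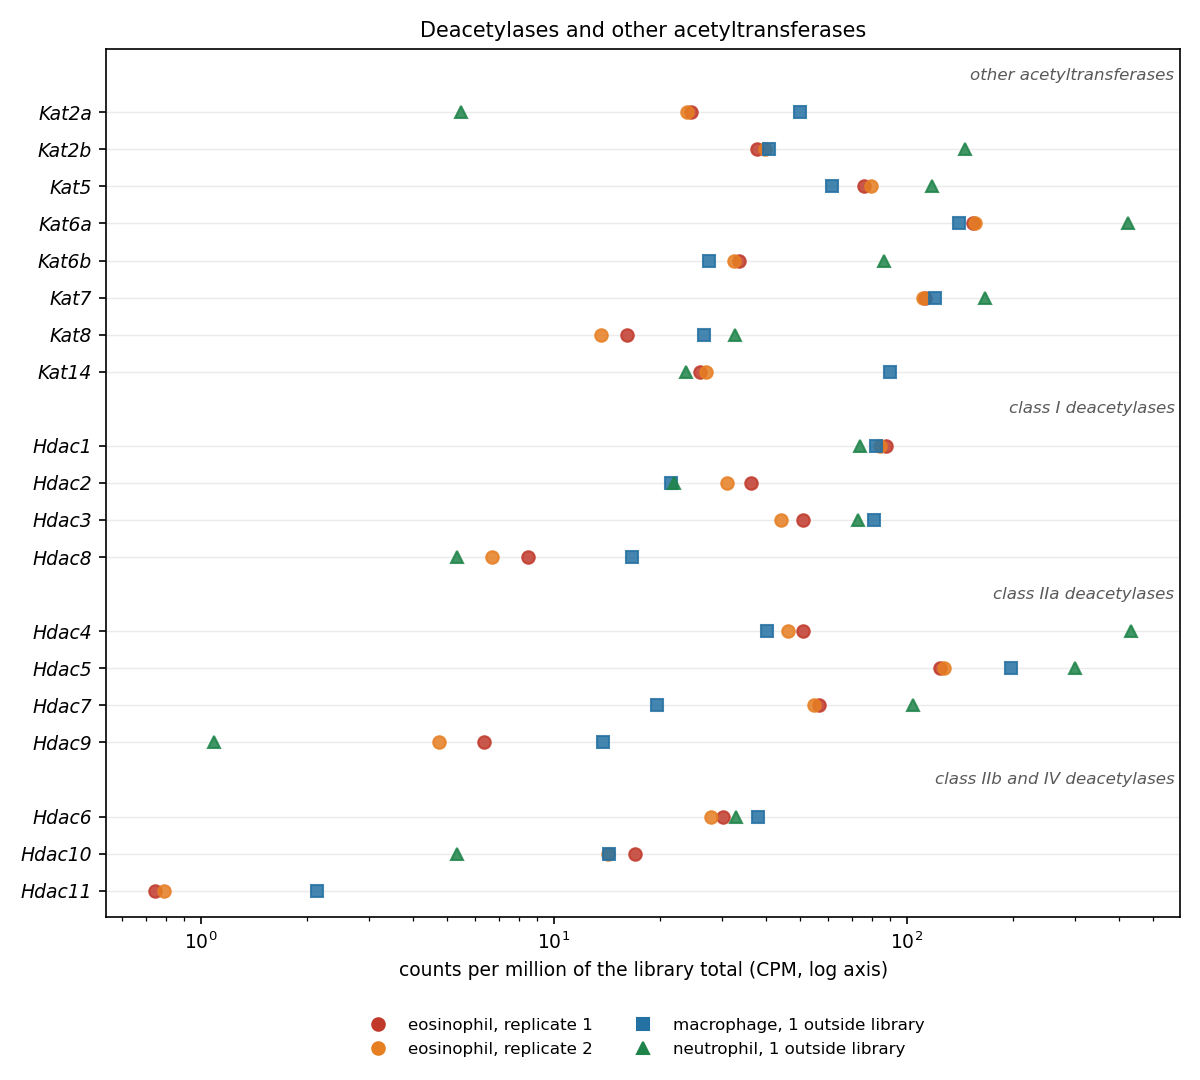
Level of the other acetyltransferases and the deacetylases in CPM on a log axis, with 1 point per library and symbols for the eosinophil, macrophage and neutrophil libraries. Hdac4 lies far to the right in the neutrophil library at 432 CPM, beside 51.0 and 46.1 CPM in eosinophils, and Hdac11 in the neutrophil library, at 0, is not drawn.

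The other acetyltransferases include GCN5 (Kat2a) and PCAF (Kat2b), related enzymes of H3K9 acetylation. Kat2a had 24.5 and 23.9 CPM in eosinophils, 49.8 CPM in the macrophage library and 5.48 CPM in the neutrophil library. Kat2b had 37.6 and 39.6 CPM in eosinophils, 40.9 CPM in the macrophage library and 146 CPM in the neutrophil library. The pair stood on opposite sides of the neutrophil library, with Kat2a higher (2.05) and Kat2b lower (-1.91), and Kat2a was lower against macrophage (-1.03), a call that ended with a pseudocount of 1. Kat2a therefore held 39.4% (37.5 to 41.4%) and 37.6% (35.4 to 39.8%) of the counts of the pair in eosinophils, 54.9% (53.9 to 55.9%) in the macrophage library and 3.61% (2.53 to 4.99%) in the neutrophil library. Kat14, a subunit of the ATAC acetyltransferase complex, was lower against macrophage, with 26.1 and 27.1 CPM in eosinophils, 89.7 CPM in the macrophage library and 23.8 CPM in the neutrophil library (-1.74). The MYST enzymes Kat6a and Kat6b kept nearly one proportion in all 4 libraries, with Kat6a at 82.1% and 82.8% in eosinophils, 83.7% in the macrophage library and 83.0% in the neutrophil library, although both were lower against neutrophil (-1.45 and -1.38).

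Of the methyltransferases of other sites, Setd2, which trimethylates H3K36 along transcribed genes, departed furthest from macrophage. It had 162 and 161 CPM in eosinophils, 38.7 CPM in the macrophage library and 465 CPM in the neutrophil library, with differences of 2.05 and -1.52. Ehmt2, the G9a enzyme of H3K9 dimethylation, had 142 CPM in each eosinophil library, 297 CPM in the macrophage library and 162 CPM in the neutrophil library, and was lower against macrophage (-1.06). Dot1l, the H3K79 methyltransferase, stayed within 2-fold throughout, at 100.0 and 90.9 CPM in eosinophils, 123 CPM in the macrophage library and 81.1 CPM in the neutrophil library. Kmt5b, a methyltransferase of H4K20, was the other member of this group called against macrophage (1.16), and was chosen for mention after its value was seen.

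Of the 10 other demethylases, Kdm7a included, 9 passed the minimum in each comparison. Against macrophage 1 was higher (11.1%) and 0 lower, beside 22.2% and 16.2% of all genes. Against neutrophil 1 was higher (11.1%) and 4 lower (44.4%), beside 26.7% and 23.6% of all genes. Under both other scalings 1 was lower against neutrophil (11.1%), beside 16.8% of all genes with TMM scaling and 19.5% with DESeq2 size factors. Kdm2b, which removes H3K36 methylation and recruits a Polycomb complex to CpG islands, had 54.4 and 51.8 CPM in eosinophils, 84.6 CPM in the macrophage library and 11.1 CPM in the neutrophil library, the largest excess of a member against neutrophil (2.21). Its relative Kdm2a had 216 and 223 CPM in eosinophils, 198 CPM in the macrophage library and 474 CPM in the neutrophil library. Kdm2a held 79.9% and 81.1% of the counts of this pair in eosinophils, 70.1% in the macrophage library and 97.7% in the neutrophil library, with no overlap of the exact intervals between eosinophils and either. Kdm4c, a demethylase of H3K9, had 46.1 and 44.4 CPM in eosinophils, 31.9 CPM in the macrophage library and 139.6 CPM in the neutrophil library (-1.61 against neutrophil). Of the 29 members outside the H3K4, H3K27 and deacetylase groups, 3 were higher and 3 lower against macrophage, and 2 higher and 9 lower against neutrophil. The shares were below those of all genes against macrophage (10.7% each way, beside 22.2% and 16.2%). Against neutrophil the lower share was 32.1% beside 23.6% of all genes, but with TMM scaling 5 were lower (17.9%), near the 16.8% of all genes. The higher share against neutrophil with TMM scaling was 10.7%, beside 31.6% of all genes. The 29 averaged between 0.0496 and 286 CPM in eosinophils.

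The shares within the remaining pairs are shown beside those already given. Kdm5a held 68.3% and 68.0% of the Kdm5a and Kdm5b counts in eosinophils, 57.1% in the macrophage library and 49.0% in the neutrophil library. Setd1a held 64.3% and 60.3% of the counts with Setd1b in eosinophils, 54.4% in the macrophage library and 24.5% in the neutrophil library. Kmt2c held 42.3% and 43.1% of the counts with Kmt2d in eosinophils and 43.5% in the neutrophil library, where the intervals overlapped, but 29.2% in the macrophage library. Kdm1a held 87.7% and 86.4% with Kdm1b in eosinophils, 79.7% in the macrophage library and 84.0% in the neutrophil library. Kdm3a held 36.7% and 38.3% with Kdm3b in eosinophils, 25.6% in the macrophage library and 41.8% in the neutrophil library, and Ehmt1 held 24.1% and 23.9% with Ehmt2 in eosinophils, 20.6% in the macrophage library and 31.2% in the neutrophil library. Of the 12 pairs, Kat6a with Kat6b was the one whose exact interval in an eosinophil library, replicate 2, overlapped that of the macrophage library. The interval of replicate 1 (81.2 to 82.95%) lay below that of the macrophage library (83.1 to 84.2%), and both replicates overlapped the neutrophil library. Intervals that lie apart do not by themselves mark a cell type. Those of the eosinophil replicates also lay apart for Ezh2 with Ezh1, and for Setd1a with Setd1b (63.1 to 65.4% and 59.0 to 61.7%). No share of overlap was taken over other gene pairs.

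**Figure D4:**
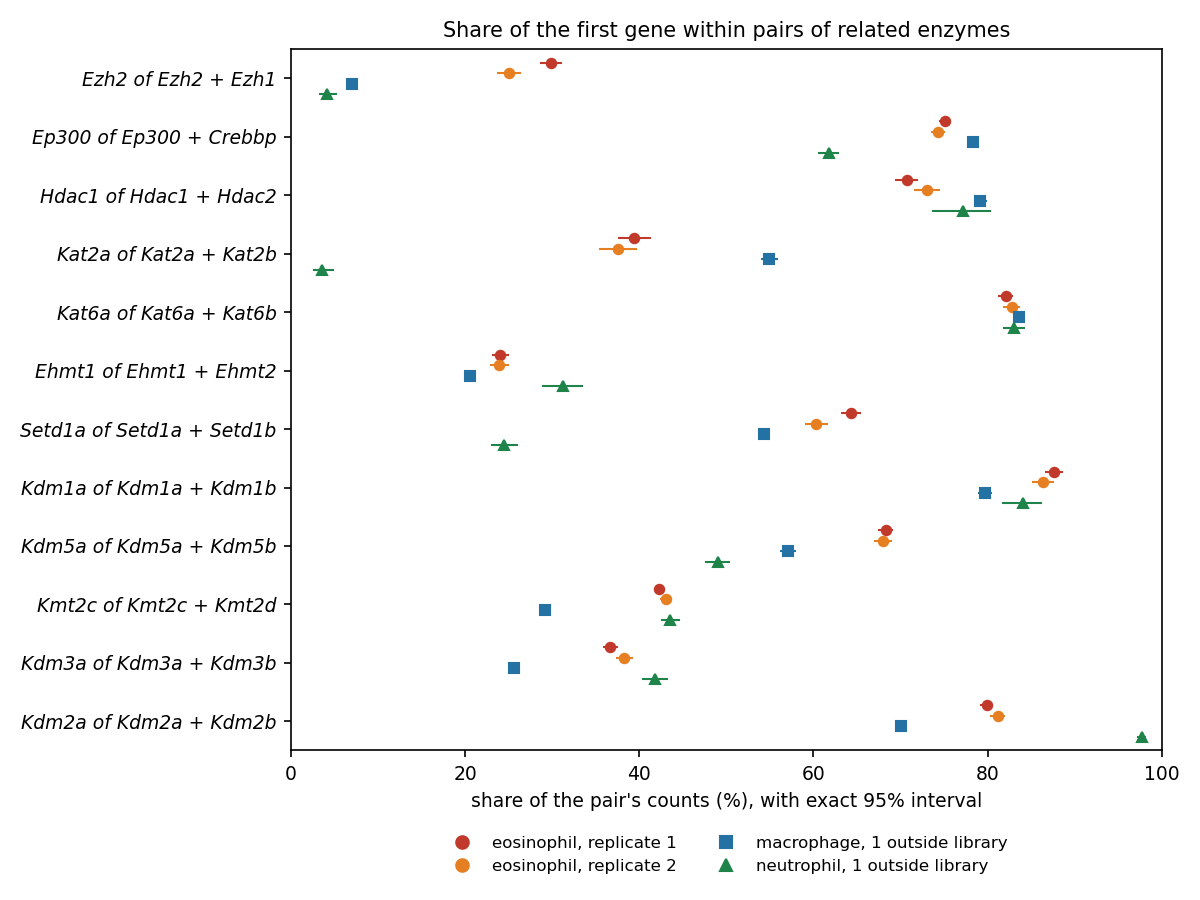
Share of the first gene in the counts of 12 pairs of related enzymes, in percent, with exact 95% intervals for counting error and 1 point per library. The Ezh2 share is 29.8% and 25.01% in eosinophils and below 8% in both outside libraries, while the Kat6a share lies between 82% and 84% in all 4.

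Partners of the enzymes were read from lists of complex subunits and other enzymes, 55 genes in all, of which 54 were detected in eosinophils. Against macrophage 8 were higher and 5 lower, and against neutrophil 7 higher and 13 lower. These shares (14.8% and 9.26% against macrophage, 12.96% and 24.1% against neutrophil) were below or near those of all genes (22.2% and 16.2%, 26.7% and 23.6%). Of the 9 subunits of the Polycomb complex that holds Ezh1 and Ezh2, 3 were higher and 0 lower against macrophage, and 2 higher and 2 lower against neutrophil. Suz12, a core subunit, had 83.0 and 78.2 CPM in eosinophils, 19.5 CPM in the macrophage library and 153 CPM in the neutrophil library, and the core subunit Eed had 52.8 and 50.5 CPM in eosinophils, 29.5 CPM in the macrophage library and 109 CPM in the neutrophil library. The 10 subunits and partners of the H3K4 methyltransferases held 1 higher gene against macrophage, Psip1, the chromatin adaptor of the MLL complex, at 50.1 and 48.6 CPM in eosinophils, 5.90 CPM in the macrophage library and 64.5 CPM in the neutrophil library. Wdr5, a core subunit shared by these complexes, had 124 CPM in each eosinophil library, 91.3 CPM in the macrophage library and 214 CPM in the neutrophil library. The 13 genes of the deacetylase complexes held 0 higher and 2 lower against macrophage, and 1 higher and 5 lower against neutrophil. Ncor1, the scaffold of the Hdac3 complex, had 327 and 326 CPM in eosinophils, 235 CPM in the macrophage library and 716 CPM in the neutrophil library. Among the 7 sirtuins, deacetylases that depend on NAD, Sirt1 was higher against macrophage (1.98) and Sirt2 lower (-1.20).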

How the data were processed

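RNA was measured in 2 eosinophil libraries and 2 outside libraries. The deposited tables hold whole-number read counts per gene without normalization. The submitters' processing notes name Trim Galore 0.4.2, STAR 2.5, featureCounts and the mm9 build, and the labels' protocols a stranded messenger RNA kit for the eosinophils. How strand was set in counting is not given in the sources used here. Overlapping and antisense genes are therefore uncertain.

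CPM is the count over the sum of its library, per 1000000. Symbols turned into dates affect 26 rows in each outside table. These entered the totals only, leaving 25075 genes to compare. The 2 outside columns belong to no sample of the series. Exact Poisson, binomial and Clopper-Pearson 95% intervals cover counting error only. At these depths 3 counts equal between 0.0281 and 0.469 CPM. The calling rule was tested on counts simulated from the eosinophil profile, with planted differences. As the simulated outside libraries shared that profile, the test cannot speak to differences of laboratory, preparation or composition. Scaling alternatives came from edgeR 4.0.16 and DESeq2 1.42.0, and no count model was fitted. Python 3.11.15, pandas 2.3.3 and scipy 1.17.1 were used. Members, lists and pairs were chosen with earlier results of these data known. Genes named are the H3K4, H3K27 and Hdac members, others called alike against both outside libraries, the 2 widest each way per comparison and any not detected, with pairs and partners from fixed lists. A few others are named as examples. Peak lists were not used, since no mm9 annotation was at hand to place them at genes.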

Additional observations from a re-analysis of the deposited data

How the results depend on the processing

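No paired analysis was possible because the RNA libraries form 1 group and the outside columns carry no replicate number. Against macrophage, the 15 calls (10 higher, 5 lower) were 29 at a fold of 1.5, with 14 lower, and 5 at a fold of 3, with 4 higher and 1 lower, since a fold sets how many genes pass. With a pseudocount of 1 the macrophage calls held 3 lower. Leaving out either eosinophil library gave 10 higher and 6 lower. Against neutrophil, the 24 calls (5 higher, 19 lower) were 15 with TMM scaling, with 9 lower, and 11 were lower with DESeq2 size factors, where the median of all genes moved up by 0.30 and 0.18. At a fold of 1.5 there were 38 calls among 55 members, with 32 lower, and at a fold of 3 there were 9, with 3 higher and 6 lower. Over all genes, 33.4% were higher and 35.3% lower at a fold of 1.5, and 19.7% and 12.4% at a fold of 3. Leaving out an eosinophil library gave 5 higher and 19 to 20 lower. Detection held 52 to 56 members at minimums of 5 and 0.5 CPM, and 0 members lay more than 1.5-fold apart between the eosinophil libraries under either scaling. An order of members by level per length was not run, as no transcript or coding lengths were at hand. The neutrophil library, with 6390310 counts, limits low genes most.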
